A study of Macaca mulatta with 8 samples.

Results

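Ion channel genes encode the pores, and the accessory subunits of those pores, through which potassium, sodium, calcium and chloride cross cell membranes. They were taken here as every gene whose single symbol in the array's annotation begins with KCN, CACN, CLCN, TRPC, TRPM or TRPV, or is SCN followed by a number. The rule found 120 of the 14132 genes measured, 1 probe set standing for each gene (the brightest on average), and they are 74 potassium, 9 sodium, 17 calcium, 4 CLC chloride and 16 transient receptor potential (TRP) channel genes. Of the 120, 116 are listed as protein coding in the reference gene table, TRPC2 is listed there as a transcribed pseudogene, and 3 (KCNA1, KCNK4 and KCNT1) carry gene IDs that the table does not hold.

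The samples are granulosa cells of rhesus macaques given follicle-stimulating hormone (FSH), 4 RNA preparations collected once human chorionic gonadotropin (hCG) had been added as the ovulatory stimulus and 4 collected under FSH alone, before hCG, each on its own Affymetrix rhesus array. The series design calls them mural granulosa cells, the cells that line the follicle wall, whereas the source labels mention cumulus-oocyte complexes. The comparison asks how transcript levels differ after the ovulatory stimulus. The labels do not say which preparations came from separate animals, so p-values measure the spread between these preparations, which may be partly technical.

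Potassium channels hold the resting membrane potential and return it after depolarisation. Voltage-gated calcium and sodium channels carry inward current, CLC proteins carry chloride, and most TRP channels are cation channels opened by receptors, stretch, temperature or calcium stores. Granulosa cells are not classical excitable cells, but voltage-gated calcium currents and large-conductance calcium-activated potassium currents have been recorded from them, and calcium entry and membrane potential bear on steroid secretion in gonadal cells.

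Array medians lay between 5.44 and 5.54 on the log2 intensity scale. The 3' control probe set of ACTB exceeded the 5' one by 4.47 to 5.18 after hCG and by 4.70 to 4.80 before hCG. Array 3 after hCG was highest and array 1 after hCG lowest of the 8. The RNA was amplified over repeated rounds, so this difference does not measure RNA integrity alone. Of 9 matched granulosa markers, 8 fell and WT1 rose; the inhibin subunit INHA read 13.50 ± 0.19 after hCG and 14.07 ± 0.08 before hCG, and INHBA read 11.12 ± 0.23 after hCG and 12.76 ± 0.19 before hCG (SD, n = 4 each). None of 9 matched oocyte markers passed the threshold (ZP4 differed by 0.31, adjusted p = 0.223, and ZP1 by -0.21, adjusted p = 0.250). None of 7 matched endothelial markers passed (VWF differed by 1.26, adjusted p = 0.138, and PECAM1 by 0.0095, adjusted p = 0.985), nor did any of 3 matched neuron markers (TUBB3 differed by 0.11, adjusted p = 0.480, and STMN2 by -0.15, adjusted p = 0.359). Of 3 matched theca markers, AMHR2, which granulosa cells also express, fell by 0.98 (adjusted p = 0.00278), CYP17A1, at 4.55 after hCG and 5.02 before hCG and so below every array's median, fell by 0.47 (adjusted p = 0.0303), and NR2F2 differed by 0.45 (adjusted p = 0.247). Fewer cells of a type and less RNA per cell cannot be told apart in such bulk preparations.

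After hCG, 13 of the 120 ion channel genes rose and 8 fell, while 99 did not pass the threshold, an adjusted p of 0.05 over all genes with limma and Benjamini-Hochberg adjustment. The 21 genes past it are 17.5% of the channels, against 23.8% of all genes. Increases made up 10.8% of the channels against 11.3% of all genes, and decreases 6.67% against 12.5%. At least a 2-fold difference was seen in 11 of the 21 (9.17% of the channels, against 10.5% of all genes), 9 of them higher and 2 lower. The groups did not overlap for 27 channel genes (22.5%, against 27.2% of all genes). The median log2 difference was -0.12 over the channels and -0.09 over all genes.

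Against 11.3% of all genes higher and 12.5% lower, 10 of the 74 potassium channel genes rose and 4 fell. Those that rose are a silent voltage-gated subunit (KCNG3), a voltage-gated pore (KCNH2), 2-pore leak channels (KCNK5, KCNK1 and KCNK12), an ATP-sensitive channel pore (KCNJ8), an accessory subunit of voltage-gated channels (KCNAB1) and the pore and accessory subunits of the large-conductance calcium-activated channel (KCNMA1, KCNMB4 and KCNMB1). None of the 9 sodium channel genes passed the threshold by its brightest probe set. The counts by class below are to be read against the same shares of all genes.

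**Figure D1:**
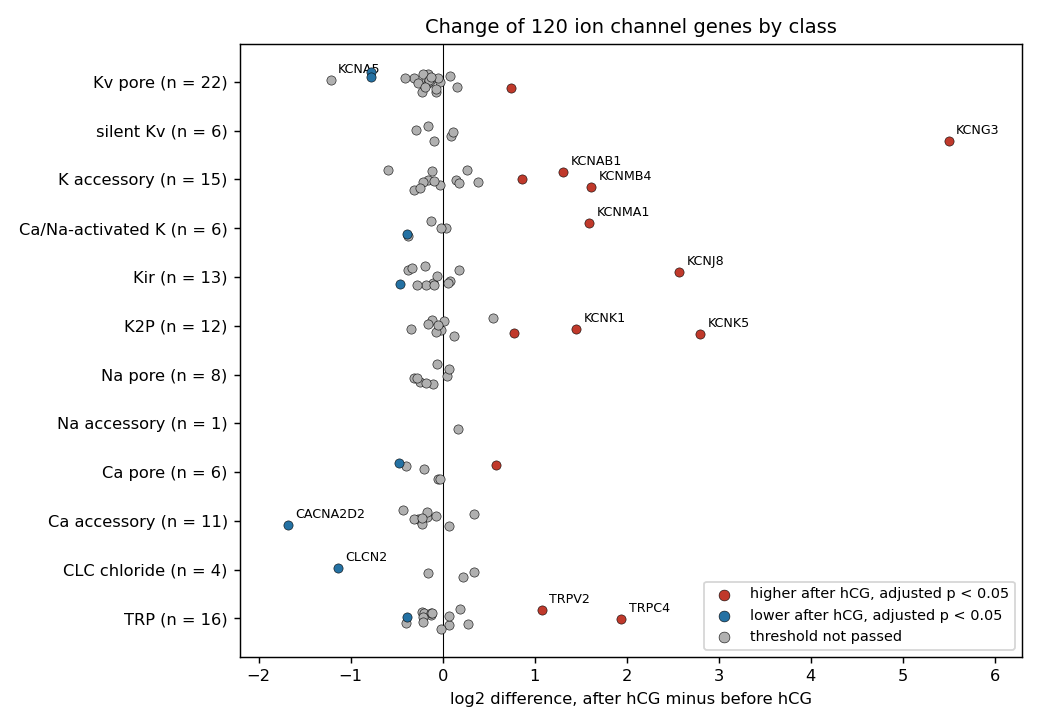
Log2 difference (after hCG minus before hCG, horizontal axis) of each of the 120 ion channel genes, in rows by class; each point is 1 gene and vertical scatter within a row only separates points. Red and blue points passed the threshold, grey ones did not, and genes that differ by at least 1 are named; KCNG3 lies at 5.50, far to the right of all others.

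Many channel genes gave low signals, and a smaller share passed among these than among brighter ones, as for genes in general. The mean log2 signal lay above the median of all values, 5.49, for 62 of the 120 channel genes (51.7%), against 73.3% of all genes. Above it, 17 of 62 passed (27.4%, against 29.7% of all genes above it). At or below it, 4 of 58 passed (6.90%, against 7.65% of all genes at or below it). Signals of different probe sets depend on their probes and are not compared here as amounts of RNA.

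**Figure D2:**
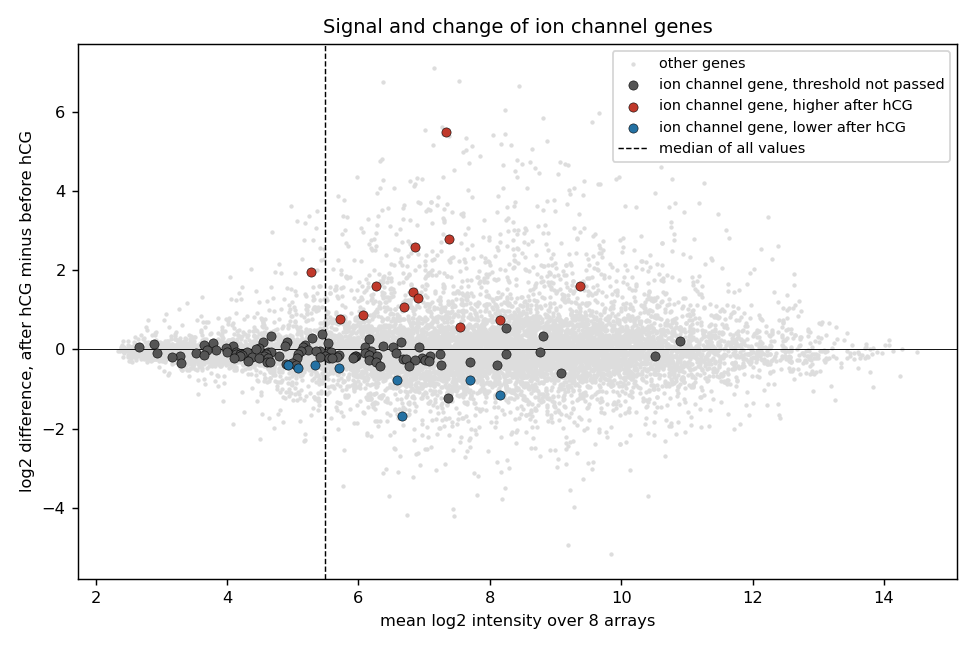
Mean log2 intensity over the 8 arrays (horizontal axis) and log2 difference after hCG minus before hCG (vertical axis), with 1 point per gene; the dashed line is the median of all values, 5.49. Of the ion channel genes, 17 of the 62 to the right of the line and 4 of the 58 to its left or on it passed the threshold.

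Among the voltage-gated potassium channels, KCNG3 encodes an electrically silent subunit that forms no channel alone and alters the gating of Kv2 pores. It read 10.15, 10.33, 9.16 and 10.71 in arrays 1 to 4 after hCG, against 4.27, 4.80, 4.38 and 4.91 in arrays 1 to 4 before hCG. The groups are far apart, with array 3 the lowest after hCG, and the log2 difference was 5.50 (SE 0.30, adjusted p = 4.01e-06), or 45.1-fold higher. Its level before hCG lay below the median of all values, a range in which folds rest on how background was corrected. The 5 other silent subunits measured did not pass, with differences of -0.29 to 0.11. KCNF1, the one with the highest signal and the largest difference among them, read 6.93 ± 0.02 after hCG and 7.22 ± 0.21 before hCG (adjusted p = 0.123, and 0.0433 without array 3 before hCG). KCNB2, a Kv2 pore named after its values were seen, differed by -0.07 (adjusted p = 0.721).

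Of 22 voltage-gated potassium pore subunits, 1 rose, 2 fell and 19 did not pass. KCNH2, whose channel returns the cardiac action potential to rest, was at 8.52 ± 0.35 after hCG and 7.78 ± 0.30 before hCG (log2 difference 0.75, SE 0.20, adjusted p = 0.0241). KCNQ1, a slowly activating channel that also works in secretory epithelia, was at 7.31 ± 0.21 after hCG and 8.09 ± 0.14 before hCG (log2 difference -0.78, SE 0.13, adjusted p = 0.00254). KCND1, the pore of a transient A-type current, was at 6.19 ± 0.28 after hCG and 6.97 ± 0.09 before hCG (log2 difference -0.78, SE 0.15, adjusted p = 0.00402). For both KCNQ1 and KCND1 every array after hCG lay below every array before hCG. KCNA5, a delayed rectifier, read 6.22, 5.91, 7.76 and 7.14 after hCG and 7.14, 7.996, 8.03 and 8.71 before hCG. The groups overlap, and its difference of -1.21 (SE 0.43) did not pass (adjusted p = 0.0715), although leaving out array 3 after hCG (-1.55, adjusted p = 0.0184) or array 1 before hCG (-1.49, adjusted p = 0.0410) brought it past the threshold. The 19 that did not pass ranged from -1.21 to 0.16.

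The large-conductance calcium-activated potassium (BK) channel opens on calcium and depolarisation together. KCNMA1 encodes its pore, and the KCNMB genes encode beta subunits that set its calcium sensitivity and kinetics. KCNMA1 read 6.88, 6.42, 7.20 and 7.76 after hCG, against 5.61, 4.96, 5.19 and 6.14 before hCG. All 4 arrays after hCG exceeded all 4 before hCG, and the log2 difference was 1.59 (SE 0.32, adjusted p = 0.00553).

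KCNMB4 read 9.93, 10.40, 10.23 and 10.13 after hCG, against 8.79, 8.63, 8.47 and 8.36 before hCG, with little spread in either group (log2 difference 1.61, SE 0.14, adjusted p = 5.43e-05). KCNMB1, the beta subunit known from smooth muscle, was at 6.49 ± 0.50 after hCG and 5.63 ± 0.18 before hCG (log2 difference 0.86, SE 0.23, adjusted p = 0.0226). KCNMB2, a beta subunit that inactivates the channel, did not pass, at 8.18, 8.47, 10.15 and 8.31 after hCG and 9.26, 9.35, 9.81 and 9.08 before hCG (difference -0.60, adjusted p = 0.317). Array 3 after hCG lies above all arrays before hCG while the other arrays after hCG lie below them, and without it the difference was -1.05 (adjusted p = 0.00322). KCNMB3, named after its values were seen, differed by 0.18 (adjusted p = 0.548). By their brightest probe sets, the pore and 2 of the 4 beta subunits therefore passed with higher signals, where 11.3% of all genes rose. Of the 3 probe sets of KCNMA1, 1 rose, and of the 4 of KCNMB4, 2 rose.

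In the class of calcium- or sodium-activated channels, KCNMA1 rose, KCNN4 fell and 4 of 6 did not pass. KCNN4, the intermediate-conductance channel known from red cells and lymphocytes, was at 5.15 ± 0.08 after hCG and 5.53 ± 0.11 before hCG (log2 difference -0.39, adjusted p = 0.0243). The small-conductance channels KCNN1 and KCNN3 differed by -0.37 (adjusted p = 0.195) and -0.01 (adjusted p = 0.958).

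Among 15 potassium channel accessory genes, KCNMB4, KCNMB1 and KCNAB1 rose and the other 12 did not pass. KCNAB1, the cytoplasmic beta subunit of Kv1 channels, read 8.48, 6.50, 7.01 and 8.23 after hCG, against 6.28, 5.97, 6.09 and 6.65 before hCG. Array 2 after hCG lies below array 4 before hCG, so the groups overlap (log2 difference 1.31, SE 0.41, adjusted p = 0.0430).

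Channels with 2 pore domains (K2P) carry background potassium leak. Of 12 measured, 3 rose, none fell and 9 did not pass, where 11.3% of all genes rose and 12.5% fell. KCNK5, a leak channel opened by alkaline pH and active in cell volume regulation, read 9.44, 9.07, 7.18 and 9.41 after hCG, against 6.10, 6.08, 5.78 and 5.95 before hCG. Array 3 was again the lowest after hCG but still above every array before hCG, and the log2 difference was 2.80 (SE 0.44, adjusted p = 0.00152). KCNK1, a weakly rectifying leak channel, read 8.50, 7.38, 7.26 and 7.05 after hCG, against 5.84, 6.06, 6.04 and 6.45 before hCG (log2 difference 1.45, SE 0.29, adjusted p = 0.00567). Array 1 was its highest after hCG. KCNK12 was at 6.10 ± 0.49 after hCG and 5.33 ± 0.20 before hCG (log2 difference 0.77, SE 0.23, adjusted p = 0.0352). KCNK3, an acid-sensitive leak channel, was at 8.52 ± 0.29 after hCG and 7.97 ± 0.29 before hCG and did not pass (adjusted p = 0.0592). Leaving out array 4 after hCG (adjusted p = 0.0461) or array 2 before hCG (adjusted p = 0.0420) brought it past the threshold. So did median centring of each array (adjusted p = 0.0384).

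Inward rectifiers pass potassium more easily into than out of the cell. Of 13, KCNJ8 rose, KCNJ1 fell and 11 did not pass, with differences of -0.38 to 0.17. KCNJ8, the pore of an ATP-sensitive channel of vascular smooth muscle and pericytes, read 6.61, 8.49, 9.85 and 7.62 after hCG, against 5.33, 6.16, 5.44 and 5.36 before hCG. The arrays after hCG span more than 3 units, array 3 highest and array 1 lowest, and none reaches down to the highest array before hCG (log2 difference 2.57, SE 0.57, adjusted p = 0.00987). Of 7 matched markers of smooth muscle and stroma, 1 rose (TAGLN, by 0.42) and none fell, and their mean log2 per array was 6.47 to 6.77 after hCG and 6.47 to 6.82 before hCG. The markers with the highest signals, DCN and MYH11, differed by 0.92 (adjusted p = 0.0844) and -0.16 (adjusted p = 0.850). The part of such cells in the KCNJ8 and KCNMB1 results was not tested.

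KCNJ1, a potassium channel of the kidney tubule, was at 4.84 ± 0.20 after hCG and 5.31 ± 0.16 before hCG (log2 difference -0.47, adjusted p = 0.0335). KCNJ2, the classical strong inward rectifier, had the highest signal of this class and read 10.43 ± 0.15 after hCG and 10.61 ± 0.31 before hCG (adjusted p = 0.470). KCNJ13 differed by -0.38 (adjusted p = 0.338).

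**Figure D3:**
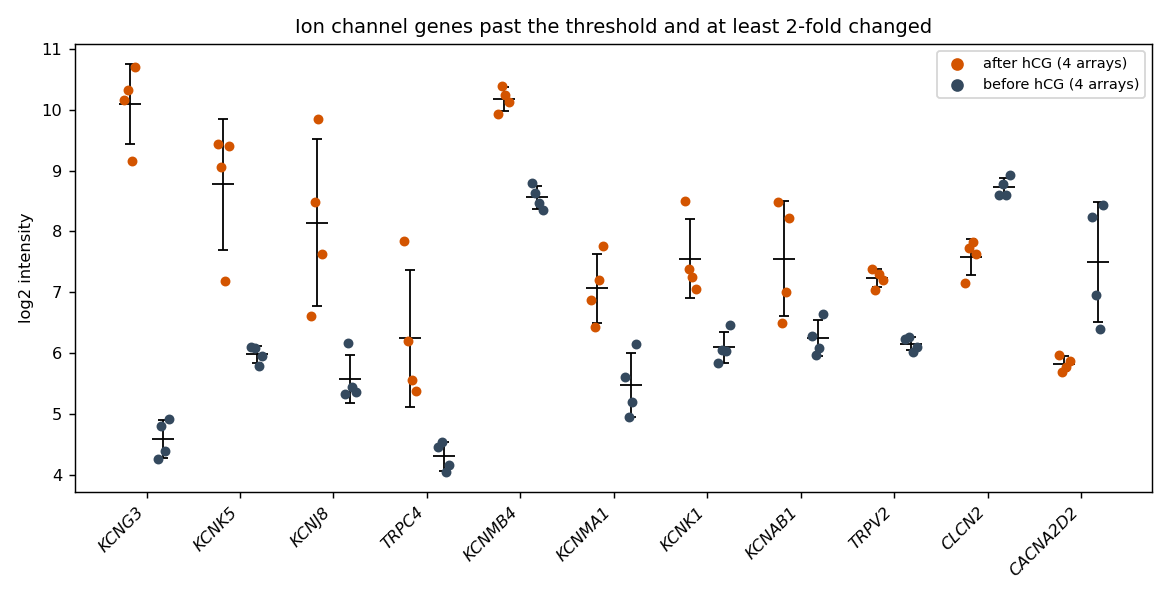
Log2 intensity (vertical axis) of the 11 ion channel genes that passed the threshold with at least a 2-fold difference, ordered by that difference. Each point is 1 array, orange after hCG and dark blue before hCG, and bars give the mean ± SD of 4 arrays; only KCNAB1 has groups that overlap.

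Voltage-gated calcium channels consist of an alpha 1 pore with beta, gamma and alpha 2 delta accessory subunits. Of 6 alpha 1 genes, CACNA1F rose, CACNA1D fell and 4 did not pass. CACNA1F, the L-type pore best known from photoreceptors, was at 7.84 ± 0.23 after hCG and 7.26 ± 0.19 before hCG (log2 difference 0.58, SE 0.15, adjusted p = 0.0191). CACNA1D, an L-type pore of endocrine and pacemaker cells, was at 5.47 ± 0.19 after hCG and 5.94 ± 0.13 before hCG (log2 difference -0.47, SE 0.13, adjusted p = 0.0254). CACNA1B, the N-type pore, did not pass at 7.91 ± 0.33 after hCG and 8.32 ± 0.41 before hCG (adjusted p = 0.238).

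Of 11 calcium channel accessory genes, 1 fell and 10 did not pass. CACNA2D2, an alpha 2 delta subunit that raises the number of channels at the membrane, read 5.97, 5.70, 5.77 and 5.87 after hCG, against 8.23, 6.96, 6.39 and 8.43 before hCG. The arrays after hCG lie within 0.3 units, whereas arrays 1 and 4 before hCG stand above arrays 2 and 3 (log2 difference -1.68, SE 0.40, adjusted p = 0.0142). CACNA2D4, with the highest signal of the class, read 8.98 ± 0.19 after hCG and 8.64 ± 0.54 before hCG (adjusted p = 0.347), and it passed without array 1 before hCG (0.61, adjusted p = 0.0144). CACNB2, a beta subunit, differed by -0.43 (adjusted p = 0.279).

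All 8 sodium channel alpha genes and SCN3B, the only beta gene measured, failed to pass by their brightest probe sets, with alpha differences of -0.31 to 0.06. Of the 8 alpha genes, 2 had a mean signal above the median of all values, as did SCN3B. Of all genes at or below that median, 7.65% passed. Among the 9 sodium channel genes, 1 had an unadjusted p under 0.05 in the limma fit, namely SCN2A. With the mean of all probe sets of a gene, SCN8A passed (log2 difference -0.42, adjusted p = 0.0141). SCN4A, with the highest signal of the alpha genes, read 6.55 ± 0.12 after hCG and 6.79 ± 0.17 before hCG (adjusted p = 0.184). SCN2A read 4.46 ± 0.10 after hCG and 4.76 ± 0.21 before hCG (adjusted p = 0.117), and SCN3B read 5.63 ± 0.14 after hCG and 5.46 ± 0.13 before hCG (adjusted p = 0.339).

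Of the 4 CLC genes, CLCN2 fell and 3 did not pass. CLCN2, a chloride channel opened by hyperpolarisation and cell swelling, read 7.16, 7.74, 7.82 and 7.63 after hCG, against 8.61, 8.77, 8.60 and 8.93 before hCG. The groups are apart by more than their spread (log2 difference -1.14, SE 0.16, adjusted p = 0.000798). CLCN3, a chloride-proton exchanger of endosomes, read 11.00 ± 0.16 after hCG and 10.78 ± 0.11 before hCG (adjusted p = 0.209). CLCN5, another endosomal exchanger, differed by 0.34 (adjusted p = 0.167).

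Of 16 TRP genes, 2 rose, 1 fell and 13 did not pass. TRPC4, a calcium-permeable channel opened through G protein-coupled receptors, read 7.85, 6.19, 5.56 and 5.38 after hCG, against 4.45, 4.55, 4.05 and 4.16 before hCG. Array 1 stands well above the others after hCG, and its signals before hCG are low (log2 difference 1.94, SE 0.47, adjusted p = 0.0139). With 32 added to each intensity before taking log2, the difference was 1.12 and did not pass (adjusted p = 0.0703).

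TRPV2, a calcium-permeable channel also abundant in macrophages, read 7.39, 7.03, 7.30 and 7.20 after hCG, against 6.23, 6.26, 6.02 and 6.11 before hCG. Both groups are tight and apart (log2 difference 1.08, SE 0.12, adjusted p = 0.000176). TRPV6, a calcium channel of absorbing epithelia, was at 4.73 ± 0.11 after hCG and 5.12 ± 0.10 before hCG (log2 difference -0.39, adjusted p = 0.0261). TRPM7, a channel with a kinase domain, differed by -0.40 (adjusted p = 0.272) and TRPM5, a calcium-activated channel of taste cells, by -0.12 (adjusted p = 0.493). Of 7 matched leukocyte markers, none rose and CSF1R fell by 2.09; their mean log2 per array was 5.77 to 7.10 after hCG and 6.76 to 7.06 before hCG, with array 3 after hCG lowest. TYROBP differed by -0.09 (adjusted p = 0.910), CD14 by 0.22 (adjusted p = 0.682) and CD68, a macrophage marker, by 0.84 (adjusted p = 0.0502). The part of leukocytes in the TRPV2 and KCNN4 results was not tested.

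The 21 calls differ in how firmly they stand. In 11 of them the call held under all 15 alternatives run, namely KCNG3, KCNK5, KCNJ8, KCNMB4, KCNMA1, KCNK1 and TRPV2 among the higher and CACNA2D2, CLCN2, KCND1 and KCNQ1 among the lower. None of these 15 alternatives asks whether the separate probe sets of a gene agree. TRPC4 kept its call whichever array was left out. The other 9 lost theirs in 2 to 6 of the 8 fits that leave out 1 array. KCNAB1 lost it without array 1 or 4 after hCG or any array before hCG (adjusted p = 0.0595 to 0.101), and KCNK12 without the same 6 arrays (adjusted p = 0.0515 to 0.0905). KCNH2 lost it without array 1 or 4 after hCG or array 1 or 2 before hCG (adjusted p = 0.0597 to 0.0682). KCNMB1 lost it without array 1 or 3 before hCG (adjusted p = 0.0549 to 0.0640) and CACNA1F without array 2 of either group (adjusted p = 0.0537 to 0.0546).

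Among the decreases, CACNA1D lost its call without array 1 or 3 after hCG or array 1, 2 or 4 before hCG (adjusted p = 0.0596 to 0.0686). KCNJ1 lost it without array 1 or 2 after hCG or array 1, 3 or 4 before hCG (adjusted p = 0.0606 to 0.0899). KCNN4 lost it without array 2 or 3 after hCG or array 2 or 4 before hCG (adjusted p = 0.0520 to 0.0695), and TRPV6 without array 3 or 4 after hCG or array 2 or 4 before hCG (adjusted p = 0.0520 to 0.0716). All 4 differ by less than 0.5 on the log2 scale. The mean signals of KCNJ1 (5.07), KCNN4 (5.34) and TRPV6 (4.93) lay below the median of all values, 5.49. The fit of only genes above that median left them out.

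Different probe sets of a gene can target different stretches of its transcripts, and 47 of the 120 genes have more than 1 probe set. Which stretches they match was not checked here. Of the 10 called genes among them, 2 (KCNK1 and KCNQ1) had all probe sets past the threshold in the same direction, with p-values adjusted over all 52766 probe sets, of which 14.1% passed. The second probe set of KCNK1 rose by 2.39. The second probe set of KCNG3 read 4.19 ± 0.36 after hCG and 4.06 ± 0.21 before hCG, a difference of 0.13 (adjusted p = 0.697) beside 5.50 for the first. That of KCNK5 differed by -0.20 (adjusted p = 0.251) and that of TRPV2 by -0.16 (adjusted p = 0.620).

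KCNMB4 has 4 probe sets, of which 2 rose, by 1.61 and 1.89, and the others differed by 0.20 and -0.004. KCNMA1 has 3, of which 1 rose, and the others differed by 0.36 (adjusted p = 0.095) and -0.10. For KCNH2 a probe set other than the brightest rose more, by 2.81 (SE 0.28), at 9.53 ± 0.58 after hCG and 6.72 ± 0.38 before hCG, and the third differed by -0.21. Averaging all probe sets gave log2 differences of 2.81 for KCNG3, 1.30 for KCNK5, 0.92 for KCNMB4, 0.62 for KCNMA1 and 0.46 for TRPV2, all still past the threshold. Such an average can pass through 1 probe set that changes, so it does not show that the probe sets agree. The brightest probe set of KCNAB1 did not pass when adjusted over all probe sets (adjusted p = 0.058), and its other one did (1.68, adjusted p = 0.035).

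Another 4 genes passed only through a probe set that was not their brightest, and they are named after their values were seen. KCNAB2, a Kv beta subunit, fell by 1.08 in 1 of 4 probe sets (adjusted p = 0.023) and SCN8A fell by 0.55 in 1 of 2 (adjusted p = 0.017). CLCN5 rose by 0.66 in 1 of 2 (adjusted p = 0.012) and KCNIP3, a calcium-binding Kv4 accessory protein, by 0.53 in 1 of 3 (adjusted p = 0.047). Counting any probe set, 15 genes rose and 10 fell, and no gene had probe sets past the threshold in both directions. The share of all genes passing by any probe set was not counted, so these counts have no background to be read against.

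**Figure D4:**
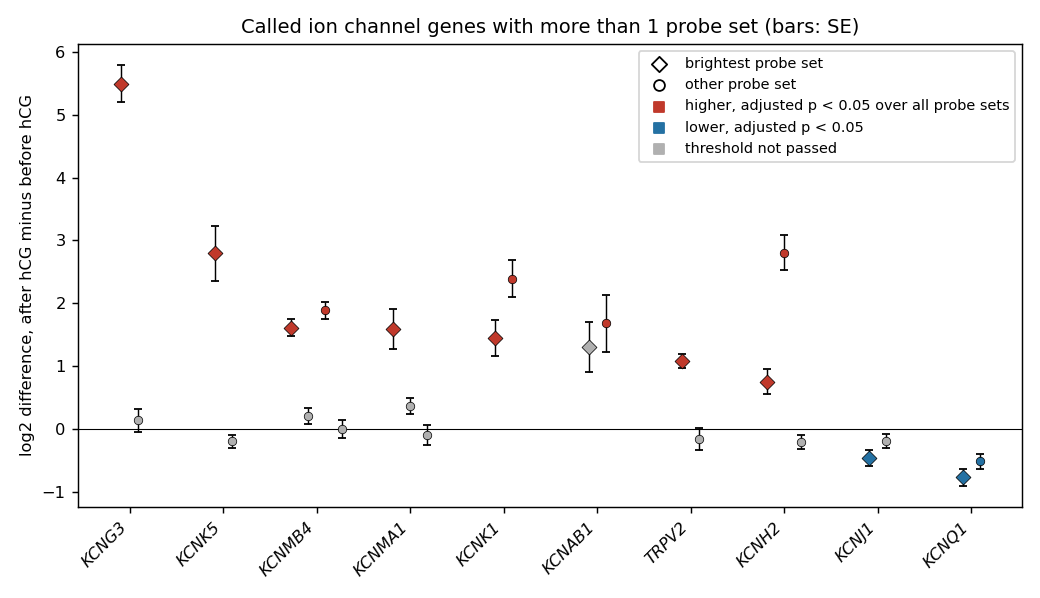
Log2 difference after hCG minus before hCG (vertical axis, bars are SE) of each probe set of the 10 called ion channel genes with more than 1 probe set. Diamonds mark the brightest probe set and circles the others; KCNK1 and KCNQ1 are the genes whose probe sets all passed in the same direction.

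Channels outside the symbol rule and ion pumps and exchangers were counted from lists of related genes. Of 59 matched other channels and channel regulators, 8 rose, 4 fell and 47 did not pass (20.3% passed, against 23.8% of all genes; median -0.12, against -0.09 over all genes). CLIC4, a chloride intracellular channel protein, was at 10.77 ± 0.12 after hCG and 5.57 ± 0.43 before hCG (log2 difference 5.19, SE 0.20, adjusted p = 4.09e-07). All 4 of its probe sets rose, by 1.56 to 5.19, and their mean by 2.79. TTYH2, of a family that has been proposed to form volume-regulated anion channels, was at 10.57 ± 0.21 after hCG and 7.05 ± 0.14 before hCG (log2 difference 3.52, adjusted p = 4.09e-07). Its probe sets rose by 0.79 and 3.52, and their mean by 2.15. LRRC8A, the obligatory subunit of the swelling-activated anion channel, rose by 1.83 (SE 0.19) by its brightest probe set and by 0.94 by the other.

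STIM1, the sensor of calcium stores, rose by 1.77 (SE 0.19, adjusted p = 0.000167), whereas the related sensor STIM2 fell by 0.83 (SE 0.19, adjusted p = 0.0118; 1 of 3 probe sets lower, and their mean fell by 0.49). ORAI1, the pore that STIM proteins open, was at 7.79 ± 0.39 after hCG and 8.79 ± 0.23 before hCG (log2 difference -0.998, SE 0.20, adjusted p = 0.00570). MCU, the calcium uniporter of mitochondria, was at 6.02 ± 0.08 after hCG and 7.28 ± 0.21 before hCG (log2 difference -1.26, SE 0.13, adjusted p = 0.000117). TRPA1, a channel opened by irritants, fell by 0.85 (1 of 3 probe sets lower, and their mean fell by 0.44). The other 4 genes that rose, named after their values were seen, are the store release channels ITPR1 and ITPR2, the ATP-gated channel P2RX4 and the calcium-activated scramblase and channel ANO6, with increases of 1.20 to 1.59. Of their relatives, also named after their values were seen, ORAI2 differed by -0.12, ORAI3 by 0.06, ITPR3 by 0.16 and RYR2 by -1.07, and none of these passed (adjusted p = 0.505, 0.781, 0.346 and 0.0691).

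Of 31 matched pumps and exchangers, 3 rose, 4 fell and 24 did not pass (22.6% passed, against 23.8% of all genes; median -0.12). ATP2B1, a calcium pump of the plasma membrane, rose by 1.60 (SE 0.22, adjusted p = 0.000747) with all 3 probe sets. SLC8A1, the sodium-calcium exchanger, was at 6.10 ± 0.58 after hCG and 7.43 ± 0.19 before hCG (log2 difference -1.33, SE 0.26, adjusted p = 0.00486; 2 of 3 probe sets lower, and their mean fell by 0.86). ATP1B1, a subunit of the sodium pump, rose by 1.06 (SE 0.29, adjusted p = 0.0252). It did not pass without array 4 after hCG (adjusted p = 0.0618) or array 4 before hCG (adjusted p = 0.0650). Of its 4 probe sets, 3 rose, and the differences of all 4 ranged from 0.03 to 1.61. SLC12A4, a potassium-chloride cotransporter, rose by 0.79 (SE 0.12). The related SLC12A9 fell by 0.53, SLC12A5 by 0.37 and the muscle calcium pump ATP2A1 by 0.35. These 3 calls were lost in 6, 2 and 8 of the 8 fits that leave out 1 array (adjusted p up to 0.0997, 0.0558 and 0.113). All of them were also lost with the replicate number as a block. SLC12A9 did not pass with the mean of its probe sets or a trended robust prior, nor SLC12A5 with 32 added to each intensity. ATP2A1 did not pass after median centring or repeated quantile normalization, and neither of its probe sets passed when adjusted over all probe sets.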

How the data were processed

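Per the labels' protocols, total RNA was amplified linearly over repeated rounds and labelled with biotin. Per the submitters' processing notes, the authors used Affymetrix Expression Console and RMA to make the deposited intensity values, with no version stated. The values are linear, so log2 was taken. After 99 control rows were left out, 52766 probe sets remained, of which 24956 have 1 gene symbol, 361 several and 27449 none. No detection calls are given. RMA corrects background per array and then normalizes quantiles and summarizes probes across arrays, so each array's values depend on the others. The number of arrays limits the precision.

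Groups were compared (4 arrays after hCG, 4 before) with limma 3.58.1 in R 4.3.3 (lmFit, eBayes) over 14132 genes and again over all probe sets. The procedure was tested on simulated data.

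The members, gene lists and rule for names were chosen with earlier results of these data known. Named are all channel genes past the threshold; per class, the gene with the highest signal and the one with the largest difference among those not past it; up to 4 per direction from the lists of related genes; and at least the 2 markers of highest signal per cell type. Alternatives were the mean of all probe sets, 32 added to each intensity, a signal filter, repeated quantile normalization, median centring, a trended robust prior, a replicate block and each array left out. Transcript and protein sequences were not used here.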

Additional observations from a re-analysis of the deposited data

Results flagged for a closer look

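In 7 of 108 groups of 4 arrays examined (54 named genes, both groups), 1 array stood far from the other 3 by Dixon's ratio; chance gives about 1 in 20. Array 3 after hCG read 7.18 for KCNK5, against 9.07 to 9.44 in the others, and 10.15 for KCNMB2, against 8.18 to 8.47. Array 2 after hCG read 6.14 for MCU, against 5.96 to 5.99. Array 2 before hCG read 6.16 for KCNJ8, against 5.33 to 5.44, and 4.16 for SLC12A5, against 4.21 to 4.22. Array 1 before hCG read 9.45 for CACNA2D4, against 8.29 to 8.42, and array 3 before hCG read 6.85 for TTYH2, against 7.10 to 7.13.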

How the results depend on the processing

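Under the alternatives other than leaving out arrays, 11 to 15 ion channel genes were higher. In both directions together, 16.7% to 27.4% of the channels tested passed, against 21.7% to 30.2% of all genes tested. The number lower was 8 in the fit reported. With the mean of all probe sets of a gene it was 13, and all 8 were kept. Of those added, CACNG1, KCNH3 and KCNJ16 have only 1 probe set, and their differences did not change. With only genes above the median signal the number lower was 5, and 62 channel genes were tested. Counting any probe set, chosen after seeing the data, gave 15 higher and 10 lower, with no matching share of all genes counted. Leaving out 1 array gave 10 to 13 higher and 4 to 9 lower among the channels, and 1374 to 1773 lower among all genes. In these fits 12.5% to 17.5% of the channels passed, against 19.1% to 23.7% of all genes. Of the arrays before hCG, leaving out array 2 gave 5 lower channel genes and leaving out array 4 gave 4. Each of these fits had 12.5% of the channels past the threshold, against 20.5% and 19.1% of all genes. The median difference of the channel genes stayed between -0.14 and -0.05. KCNN3, never past the threshold, was at 0.034 after repeated quantile normalization and at 0.026 after median centring, and from -0.14 to 0.080 with 1 array left out. With the replicate number as a block, 13 channel genes were higher and 8 lower, 13 and 7 of them shared: KCNN4 did not pass (adjusted p = 0.0585) and KCNA5 did (adjusted p = 0.0307). Deviations of same-numbered arrays correlated at -0.03 to 0.16, and those of differently numbered arrays at -0.21 to 0.16. The labels state no pairing, and with 4 arrays per group these correlations cannot decide whether the numbers pair the arrays. With 32 added, KCNAB1 (adjusted p = 0.0793), KCNK12 (adjusted p = 0.0646) and TRPC4 did not pass. KCNJ1 did not pass after repeated quantile normalization (adjusted p = 0.0608) or median centring (adjusted p = 0.0620). The cause of these changes was not tested.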
